A study of Ovis aries with 56 samples.

Results

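The right amygdala of ewes treated with a gonadotropin-releasing hormone (GnRH) agonist was compared with that of untreated ewes, by the ratio of each animal's RNA to a pool of amygdala RNA on 2-colour microarrays. The animals were Scottish Mule Texel Cross sheep in same-sex twin pairs, with 1 twin of each pair treated, and tissue was taken at 50 weeks of age. Treated ewes (GnRHa) carried subcutaneous goserelin acetate implants of 3.6 mg, renewed every 4 weeks from 28 weeks of age, and their untreated twins were the controls. The pool held RNA of both sexes, both sides and both treatments, so a level of 0 is the average of the pool and not an untreated state. Rams, used below for comparison, received the same implants from 8 weeks of age, so sex and age at first treatment cannot be told apart.

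Of 14 ewe right arrays, 10 were used: untreated replicates 1, 2, 3, 4 and 7, and GnRHa replicates 3 to 7. Arrays were chosen by spike-in RNAs added in known proportions, for which the deposited log2 ratios of a sound array should follow those of the other arrays with a slope near 1 or, with the colours exchanged, near -1. An array was kept when the absolute slope was at least 0.5, and its values were multiplied by -1 when the slope was negative. The 10 kept arrays had absolute slopes of 1.02 to 1.08. The 4 arrays left out (untreated replicates 5 and 6, GnRHa replicates 1 and 2) had absolute slopes of 0.0236 to 0.147. Over all 8 groups of the series, 41 of 56 arrays were kept. In ewes a replicate number marks a twin pair, which it does not always do in rams, and pairs 3, 4 and 7 were complete on the right side.

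GnRH from the hypothalamus drives the release of luteinizing and follicle-stimulating hormone from the pituitary, and these drive the gonads. A long-acting agonist such as goserelin first stimulates and then desensitizes the pituitary, so that gonadal steroid production falls. The amygdala, a forebrain region for emotional and social behaviour, carries receptors for sex steroids and for GnRH. Each value below is either a level, the log2 ratio of a sample to the pool, or a difference, the mean level of GnRHa minus that of untreated ewes in a linear model fitted to all 41 arrays (limma), given with its standard error (SE).

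All 10 arrays were used with the animal's RNA in the Cy5 channel. Untreated replicate 7 is labelled Cy3, but its spike-in slope was -1.03, so it was turned. All kept ewe left arrays carry the animal's RNA in Cy3, so side and dye go together in ewes, while treatment and dye do not. The probes of all 6 measured neuronal markers and all 6 measured astrocyte markers had values on all 10 arrays, and no oligodendrocyte marker was measured. Untreated replicate 4 stood apart from its group, with correlations over probes of -0.137 to 0.145 with the other untreated arrays, against 0.156 to 0.369 among those. Values were missing for 4.64% of the measurements, mainly of dim probes.

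No probe passed an adjusted p of 0.05 between GnRHa and untreated ewes in the right amygdala (0 of 12930 probes, 0% called; lowest adjusted p = 0.108, limma with Benjamini-Hochberg adjustment). At an unadjusted p under 0.05 there were 830 probes (6.42%), 452 with higher means in GnRHa ewes (3.5%) and 378 with lower means (2.92%). Under limma's array weights, which lower the weight of arrays that depart from their group, 140 probes passed, and without GnRHa replicate 5, 22 passed. The named genes among the 140 were CD86, CSN2, FLT3LG, GRM5, HRH2, HSP90AA1, PGD, RTP4 and TYROBP; those without GnRHa replicate 5 included 12 probes of immunoglobulins and 0 named genes. The median size of a difference was 0.204 and the median half-width of its 95% interval was 0.520, so the interval of a difference of the median size with that half-width included 0. Means are therefore described below as higher or lower, with their errors, and none of the differences given for the right side passed the threshold. Among the 11656 probes with at least 4 values in each group, 71 had every GnRHa array above every untreated array (0.609%) and 64 had every GnRHa array below every untreated array (0.549%).

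The transcripts with the largest differences were those of antibody chains: 10 of the 10 largest among all 12930 probes, in either direction, were described as immunoglobulin, and all 10 had higher means in GnRHa ewes. Immunoglobulin heavy and light chains are made by B cells and, in large amounts, by plasma cells. The array carries 96 probes described as immunoglobulin, of which 59 were tested. This group was picked out after its values had been seen, so it is described and not tested as a group. In the right amygdala 47 of the 59 had higher means in GnRHa ewes and 12 had lower means, with a median difference of 1.29, against -0.01 over all 12930 probes. At an unadjusted p under 0.05 there were 27 higher and 1 lower of 59, beside the 3.5% and 2.92% over all probes.

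The gamma-1 heavy chain (transcript X69797), which forms the main antibody class of blood, had the brightest of these 59 probes. Its levels in untreated replicates 1, 2, 3, 4 and 7 were -2.57, -3.04, -3.08, -2.50 and -3.28. In GnRHa replicates 3 to 7 they were 3.71, 0.86, -2.0, 0.87 and 2.59. All 5 untreated ewes lay far below the pool and close together, 4 of 5 GnRHa ewes lay above the pool, and GnRHa replicate 5 lay just above the untreated range, so the groups did not overlap. The means were -2.89 ± 0.34 (SD, n = 5) and 1.21 ± 2.16 (SD, n = 5), and the difference was 4.18 ± 0.99 (SE; 95% interval 2.17 to 6.19), or 18.1-fold (4.5 to 73.2), with an adjusted p of 0.180. Within the complete twin pairs 3, 4 and 7 the treated twin stood above its untreated twin by 6.80, 3.36 and 5.87. The adjusted p was 0.0191 without GnRHa replicate 5, with a difference of 5.04, and 0.0308 with array weights. It stayed above the threshold in every other setting. Among those, it was 0.479 with the twin pair as a fixed block, 0.623 without GnRHa replicate 7 and 0.999 with all 56 columns as labelled.

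The light chains, which pair with heavy chains in every antibody, ran in parallel. Of 21 tested probes described as lambda or without a class, 19 had higher means, with a median difference of 3.12, and all 7 kappa probes had higher means, with a median of 1.29. Over the 10 arrays the gamma-1 probe and the 8 brightest of these light chain probes, leaving out AY734682 (below), followed each other closely, with a lowest pairwise Pearson correlation of 0.912 and a median of 0.97, as a description over arrays that share the same samples. The greatest difference was that of light chain AF172695, with levels of -3.17, -4.55, -3.06, -4.99 and -4.04 in untreated ewes and 4.14, 1.30, -2.33, 0.25 and 3.08 in GnRHa replicates 3 to 7. GnRHa replicate 3 was the highest and replicate 5 the lowest treated ewe, again with no overlap, and the difference was 5.32 ± 1.17 (SE; adjusted p = 0.122).

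Light chain AF172701 had the lowest unadjusted p of all 12930 probes. Its levels were -1.80, -1.69, -0.26, -1.91 and -2.93 in untreated ewes and 3.59, 1.12, 0.34, 0.56 and 1.98 in GnRHa ewes. Every GnRHa ewe lay above the pool and every untreated ewe below it. The difference was 3.20 ± 0.60 (SE), or 9.22-fold (95% interval 3.95 to 21.5), with an adjusted p of 0.108, and it passed the threshold in 6 of 24 alternative settings.

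GnRHa replicate 5 was the lowest treated ewe in all 9 of the gamma-1 and light chain probes just set against each other and lay above every untreated ewe in 6, while the other 4 treated ewes lay above every untreated ewe and above the pool in 9 of 9. GnRHa replicate 3 was the highest in 8 of 9. The group was not uniform. The mu heavy chain X59994, of the antibody class made first in a response, had a difference of 1.60 ± 0.93 (SE; adjusted p = 0.813), and the alpha heavy chain AF024645, of the class secreted at mucosa, one of 0.12 ± 0.59 (SE; adjusted p = 0.980). The bright probe AY734682, described as a nonfunctional lambda constant region, had 0.27 ± 0.12 (SE; adjusted p = 0.729). Light chain AF038146 lay the other way, with every measured GnRHa ewe below every measured untreated ewe and a difference of -1.30 ± 0.51 (SE; adjusted p = 0.709). Since many of these transcripts are close copies of each other, probes for them may share signal and do not count as independent measurements.

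**Figure D1:**
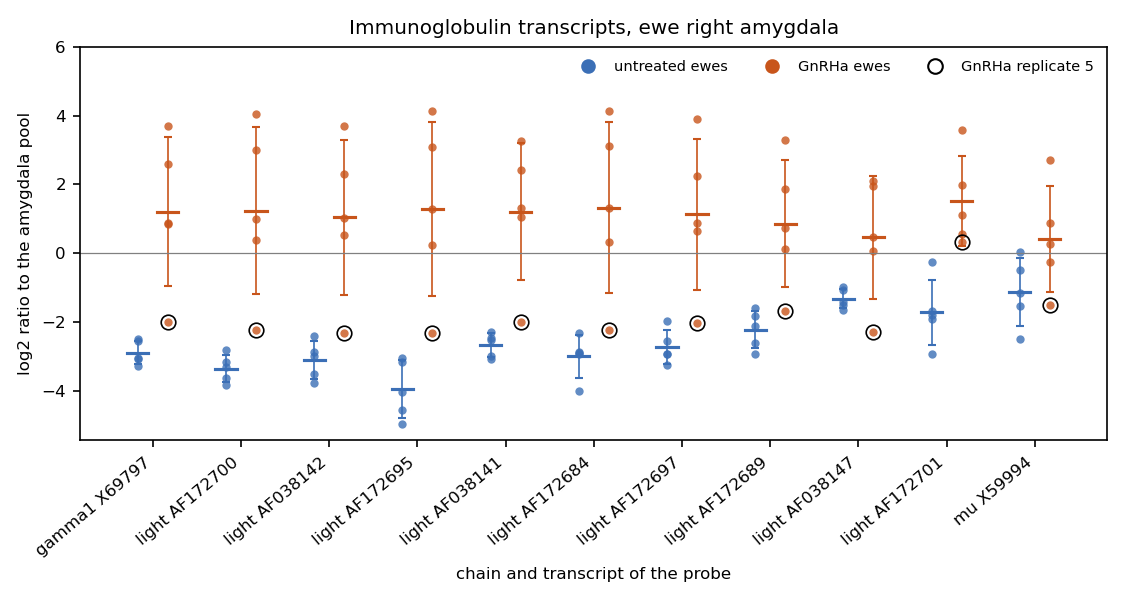
Levels (log2 ratio to the pool, vertical axis) of 11 immunoglobulin transcripts in the 10 ewe right arrays, 1 point per array, with the mean and SD of each group, and GnRHa replicate 5 circled. For the gamma-1 chain X69797 the untreated ewes sit between -3.28 and -2.50 and the GnRHa ewes between -2.0 and 3.71.

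Other blood and immune cell transcripts were looked at beside the antibody chains, and their part in the difference was not tested. Lymphocyte genes, also picked after their values had been seen, did not share the direction: 4 of 10 tested had higher means and 6 lower, with a median difference of -0.19. The T cell receptor subunit CD3D had a difference of 0.83 ± 0.60 (SE; adjusted p = 0.854). Of 9 listed blood markers 2 were measured: the beta globin HBB had 1.21 ± 0.70 (SE; adjusted p = 0.813), with levels from -2.26 to -0.63 in untreated and from -1.60 to 0.62 in GnRHa ewes, and the globin chaperone AHSP had a lower mean. In tissue RNA of this kind, fewer cells of a type and less RNA per cell cannot be told apart.

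In the left amygdala, measured in replicates 3 to 7 of both groups, the antibody chains were spread over both groups. The 5 GnRHa ewes are those of the right side, whereas untreated replicates 3, 4 and 7 were measured on both sides, 1 and 2 on the right and 5 and 6 on the left. Left gamma-1 levels in untreated replicates 3 to 7 were -0.86, 1.82, -3.58, -1.70 and -2.02, and in GnRHa replicates 3 to 7 they were -1.42, -2.22, 1.04, 1.21 and 1.05. The groups overlapped, 1 of 5 untreated and 3 of 5 GnRHa ewes lay above the pool, and GnRHa replicate 5, the lowest treated ewe on the right, was among the high ones on the left. The left difference was 1.19 ± 0.99 (SE). The right difference exceeded the left by 2.99 ± 1.32 (SE; adjusted p = 0.508), so a difference between the sides was not shown, and no immunoglobulin probe passed that test (lowest adjusted p = 0.427). On the left 32 of the 59 probes had higher means, with a median of 0.17.

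In ram right amygdala 36 of the 59 had higher means, with a median of 0.15. The ram gamma-1 difference was 1.03 ± 1.04 (SE), and the ewe difference exceeded it by 3.15 ± 1.44 (SE; adjusted p = 0.848). Gamma-1 levels ran from -3.26 to -2.17, with a median of -2.79, in the 4 untreated ram arrays and from -3.04 to 0.42, with a median of -2.26, in the 6 GnRHa ram arrays, and 1 of these 6 lay above the pool. In ram left amygdala 2 of 5 untreated arrays lay above the pool, the highest at 1.79, and 0 of 6 GnRHa arrays did, with levels from -3.24 to -2.06. The medians over the 8 groups were highest in GnRHa ewes, 1.04 on the left and 0.87 on the right, and lowest in untreated ewe right arrays at -3.04. Every pair of neighbouring groups in that order of medians overlapped.

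**Figure D2:**
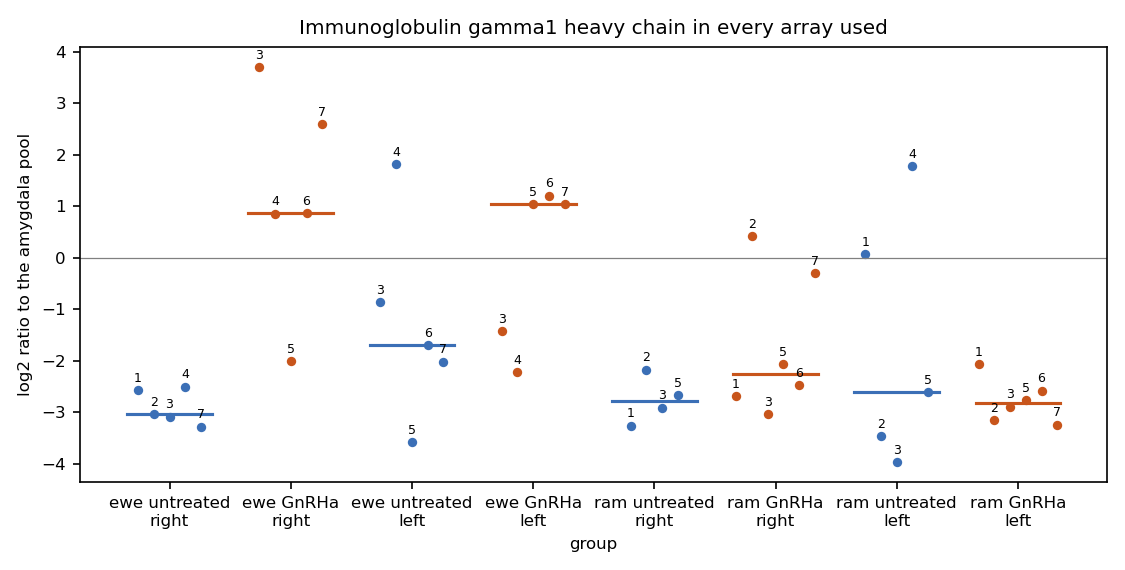
Level of the gamma-1 heavy chain X69797 (log2 ratio to the pool, vertical axis) in all 41 kept arrays by group, each point marked with its replicate number (a twin pair in ewes, not always in rams) and a line at the group median. The untreated ewe right arrays lie between -3.28 and -2.50 with a median of -3.04, and the GnRHa ewe right arrays have a median of 0.87.

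Genes that interferon induces in most cells as part of the antiviral response had mostly higher means in GnRHa ewes. Of 11 tested members of this list 10 had higher means and 1 a lower mean, with a median difference of 0.83, and 4 reached an unadjusted p under 0.05 (3.5% over all probes), RTP4, MX1, ISG15 and IRF2. The median difference was 0.39, with 1 such gene, without GnRHa replicate 4, and 1 such gene when the twin pair was a fixed block. Over the list the median level was 1.69 in GnRHa replicate 4, -0.26 to 0.46 in the other GnRHa ewes and -0.47 to -0.01 in untreated ewes. The size of that median thus depended on 1 animal, and none of its members passed the threshold.

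RTP4, a chaperone of receptor transport that interferon induces, had levels of -0.38, -0.77, -0.88, 0.90 and 0.18 in untreated ewes and -0.46, 1.67, 1.10, 1.47 and 0.41 in GnRHa ewes. GnRHa replicates 4, 5 and 6 lay above all untreated ewes, replicates 3 and 7 within their range. The difference was 1.06 ± 0.37 (SE), or 2.08-fold, with an adjusted p of 0.626.

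ISG15, a ubiquitin-like protein, had untreated levels of 0.23, -0.91, -1.21, 0.12 and 0.36 and GnRHa levels of -0.36, 3.02, 1.53, 1.5 and -0.44. The same 3 GnRHa ewes were high and the same pair, replicates 3 and 7, lay within the untreated range. The difference was 1.38 ± 0.52 (SE; adjusted p = 0.668). MX1, a GTPase that blocks viruses, was high in the same 3 animals, with a difference of 0.98 ± 0.36 (SE; adjusted p = 0.651).

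GnRHa replicates 4 and 6 lay above every untreated ewe for both the gamma-1 chain and ISG15. The other 3 did not follow the same order in both: GnRHa replicates 3 and 7 had the highest gamma-1 levels and lay within the untreated range for ISG15, whereas GnRHa replicate 5 had the lowest gamma-1 level and an ISG15 level of 1.53.

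Of the antigen presentation genes 5 of 7 had higher means, with a median of 0.46, and 1 reached an unadjusted p under 0.05 (3.5% higher over all probes). The median was 0.23 without GnRHa replicate 4 and -0.02 when all 56 columns were used as labelled. CD86, a co-stimulatory protein of antigen-presenting cells, had untreated levels of -0.38, -0.47, -0.72, 0.64 and -1.09 and GnRHa levels of 0.06, 1.29, -0.43, 1.24 and 0.63. GnRHa replicates 4 and 6 lay above all untreated ewes, the other 3 lay just below untreated replicate 4 or lower, and the difference was 0.97 ± 0.30 (SE; adjusted p = 0.530). The MHC class I light chain B2M had 0.55 ± 0.30 (SE; adjusted p = 0.805) and the lysosomal protease CTSS 0.46 ± 0.24 (SE; adjusted p = 0.790).

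Microglia and macrophage markers had higher means in 6 of 8 tested, with a median of 0.33 (0.16 with all 56 columns as labelled). At an unadjusted p under 0.05 there were 2 higher (3.5% over all probes). There were 0 with ewes only or without untreated replicate 1 or 7, and 4 without GnRHa replicate 5. Over these markers the median level was 0.62 in untreated replicate 4 and -0.21 to 0.09 in the other untreated ewes. It was 0.85 in GnRHa replicate 4 and 0.04 to 0.39 in the other GnRHa ewes. The adaptor TYROBP had a difference of 0.27 ± 0.11 (SE; adjusted p = 0.723) and lysozyme LYZ one of 1.12 ± 0.55 (SE; adjusted p = 0.763). SLC11A1, a metal transporter of macrophage phagosomes, had 1.78 ± 0.62 (SE; adjusted p = 0.649), with GnRHa replicate 7 at 3.86 and the other GnRHa ewes between -1.09 and 0.96. Among innate sensors and complement genes 10 of 14 had higher means, with a median of 0.34. At an unadjusted p under 0.05 there was 1 higher (3.5% over all probes). CD14 is a member of this list and of the microglia markers, and CTSS of those markers and of the antigen presentation list. The counts of these lists are therefore not fully separate. TLR6, a receptor of bacterial lipopeptides, had levels of 0.38, -0.52, -0.06, 0.19 and 0.34 in untreated ewes and 1.60, 1.44, 0.28, 0.63 and 0.25 in GnRHa ewes. GnRHa replicates 3, 4 and 6 lay above all untreated ewes, and the difference was 0.80 ± 0.30 (SE; adjusted p = 0.668).

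The cytokine and chemokine list was evenly split, with 16 of 29 higher and a median of 0.12. TNFSF13B, the B cell survival factor BAFF, had untreated levels of 0.17, -0.51, -0.26, 0.40 and -1.25, and 2.53, 2.08, -0.19 and 0.21 in GnRHa replicates 4 to 7, with no value in replicate 3. GnRHa replicates 4 and 5 were high and the other 2 lay within the untreated range. The difference was 1.49 ± 0.57 (SE; adjusted p = 0.669), and the left difference was 1.43 ± 0.57 (SE; adjusted p = 0.971). TNFSF13B was thus high in GnRHa replicate 5, which had the lowest antibody chains. CCL25, a chemokine that attracts lymphocytes, had 0.44 ± 0.15 (SE; adjusted p = 0.626), and its other probe 0.02 ± 0.22 (SE).

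Glutamate is the main excitatory transmitter of the amygdala. Of 14 tested glutamate receptors and transporters 11 had lower means in GnRHa ewes and 3 higher, with a median difference of -0.30. At an unadjusted p under 0.05 there were 2 lower, GRM5 and SLC1A2, beside 2.92% over all probes. With the twin pair as a fixed block the median difference was -0.10, with 0 such genes, and with all 56 columns as labelled it was -0.17. Over the list the median level was 0.28 to 0.49 in untreated replicates 1, 2, 3 and 7 and -0.51 in untreated replicate 4, and it was 0.64 in GnRHa replicate 3 and -0.46 to -0.17 in the other GnRHa ewes. In each group 1 animal therefore went against the rest. Without untreated replicate 4 the median difference was -0.44 with 4 such genes, without GnRHa replicate 3 it was -0.47 with 5, and without untreated replicate 1, 2 or 7 no gene reached that level.

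GRM5, a metabotropic glutamate receptor, showed the same 2 animals. Its levels were 1.25, 1.28, 0.87, -1.05 and 1.06 in untreated replicates 1, 2, 3, 4 and 7 and 0.89, -0.41, -0.51, -0.13 and -0.26 in GnRHa replicates 3 to 7. Apart from untreated replicate 4 and GnRHa replicate 3 the groups were separate. The difference was -0.75 ± 0.32 (SE; adjusted p = 0.723). SLC1A2, the main glutamate transporter of astrocytes, had -0.62 ± 0.28 (SE; adjusted p = 0.732), and GRIN1, the subunit that all NMDA receptors share, had -0.66 ± 0.36 (SE; adjusted p = 0.805). Neuronal markers had lower means in 4 of 6 and astrocyte markers in 5 of 6, with medians of -0.24 and -0.10. The neuronal markers GRIN1, GRIA1 and GRIA2 and the astrocyte markers SLC1A2 and SLC1A3 are also members of the glutamate list. These counts are therefore not separate from that list. The astrocyte filament GFAP had -0.10 ± 0.28 (SE; adjusted p = 0.961). On the left the glutamate list had a median of 0.15.

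Genes that handle glucose, glycogen and other nutrients had lower means in 20 of 25, with a median of -0.17, of which 2 reached an unadjusted p under 0.05 (2.92% over all probes), and 1 with a higher mean did (3.5%). With all 56 columns as labelled the median was -0.09. SLC7A5, which carries large neutral amino acids into the brain, had levels of 0.43, 0.47, 0.52, -0.97 and 0.11 in untreated ewes and -1.23, -1.44, 0.18, -1.60 and -0.76 in GnRHa ewes. As with GRM5, untreated replicate 4 lay with the GnRHa ewes, and here GnRHa replicate 5 lay with the untreated ewes. The difference was -1.09 ± 0.37 (SE; 0.47-fold; adjusted p = 0.626). The mitochondrial folate enzyme MTHFD2 had -1.46 ± 0.65 (SE; adjusted p = 0.729), the pentose phosphate enzyme PGD had 0.27 ± 0.10 (SE; adjusted p = 0.669), and liver-type glycogen phosphorylase PYGL had -0.37 ± 0.21 (SE; adjusted p = 0.813). The other PGD probe, nearly as bright, had 0.07 ± 0.07, and the other PYGL probe had -0.40 ± 0.29 (both SE).

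**Figure D3:**
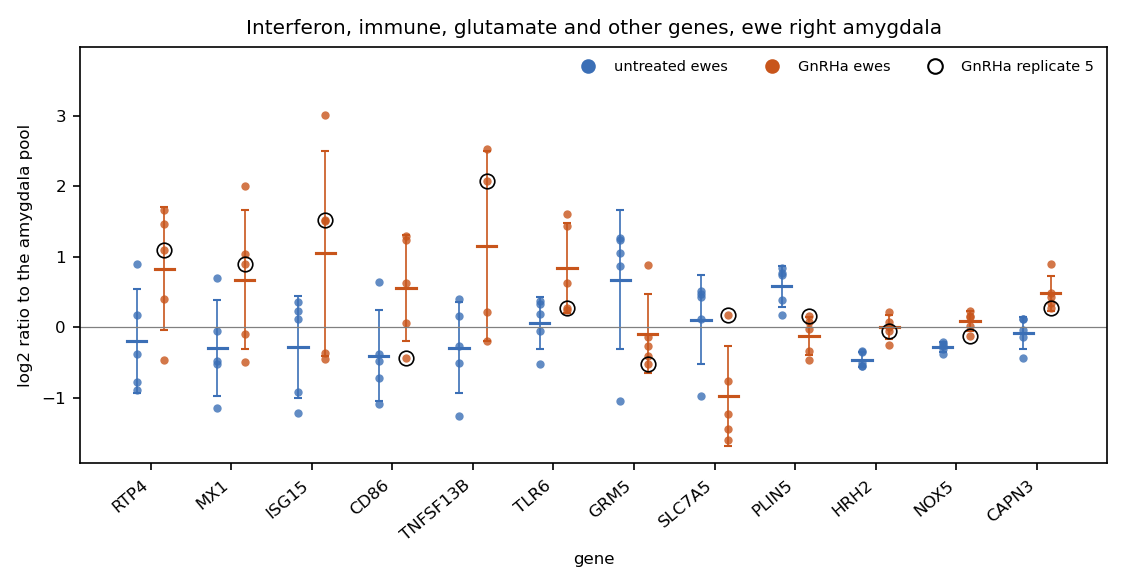
Levels (log2 ratio to the pool, vertical axis) of 12 genes in the ewe right arrays, 1 point per array, with the mean and SD of each group, and GnRHa replicate 5 circled. ISG15 reaches 3.02 in 1 GnRHa ewe and -0.44 in another, whereas for HRH2 the untreated ewes sit between -0.55 and -0.33 and the GnRHa ewes between -0.24 and 0.22.

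Among the genes of lowest p in each direction, of which 12 with higher and 11 with lower means are given here, some had groups that did not overlap. HRH2, a histamine receptor that acts through cyclic AMP, had the lowest p of the higher genes. Its levels were -0.55, -0.35, -0.33, -0.54 and -0.51 in untreated ewes and -0.24, 0.08, -0.06, 0.01 and 0.22 in GnRHa ewes. All untreated ewes lay below all GnRHa ewes, and the difference was small, 0.45 ± 0.13 (SE; 1.37-fold; adjusted p = 0.411). It was -0.01 on the left and 0.04 in ram right amygdala.

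NOX5, a calcium-activated NADPH oxidase, had untreated levels of -0.38, -0.30, -0.23, -0.21 and -0.26 and GnRHa levels of 0.14, 0.24, -0.13, 0.02 and 0.17. The groups were narrow and did not overlap, with a difference of 0.37 ± 0.12 (SE; adjusted p = 0.544). CAPN3, a calcium-dependent protease known mainly from muscle, had untreated levels of -0.04, -0.14, -0.43, 0.11 and 0.12 and GnRHa levels of 0.34, 0.91, 0.27, 0.43 and 0.48. All GnRHa ewes again lay above all untreated ewes, and the difference was 0.58 ± 0.21 (SE; adjusted p = 0.651). PTGS1, which makes prostaglandins, had 0.85 ± 0.30 (SE; adjusted p = 0.649) with overlapping groups.

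In the other direction, PLIN5, which coats lipid droplets, had levels of 0.18, 0.84, 0.74, 0.38 and 0.77 in untreated ewes and 0.08, -0.47, 0.16, -0.33 and -0.03 in GnRHa ewes. The closest arrays were 0.18 and 0.16, without overlap, and the difference was -0.69 ± 0.26 (SE; adjusted p = 0.668). A second PLIN5 probe, with values on all 10 arrays, had a difference of -0.01 ± 0.26 (SE). The value of the first probe in ram right amygdala was -0.73 ± 0.27 (SE; adjusted p = 0.443), and on the ewe left it was 0.26 ± 0.26 (SE).

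TGFBR1, a receptor of transforming growth factor beta, had 0.53, -0.08, 0.32 and 0.42 in untreated replicates 1, 2, 3 and 7, and -0.87, -1.22, -0.54, -0.66 and -0.24 in GnRHa ewes. The groups did not overlap and the difference was -1.04 ± 0.41 (SE; adjusted p = 0.681). PMCH, the precursor of melanin-concentrating hormone, had 0.96, 0.54, 1.52 and 0.48 in untreated replicates 1, 3, 4 and 7, and -0.40, -0.43, -0.15, -1.11 and -0.26 in GnRHa ewes. All GnRHa ewes lay below the pool and all measured untreated ewes above it, with a difference of -1.36 ± 0.54 (SE; adjusted p = 0.705).

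A pair of dim probes had values on only some arrays. ISL1, a homeodomain factor of developing neurons, had 0.87 and 1.52 in untreated replicates 1 and 4, and -2.12, -0.83 and -0.61 in GnRHa replicates 3, 6 and 7, with a difference of -2.38 ± 0.63 (SE; adjusted p = 0.479). CGA, the alpha subunit that pituitary glycoprotein hormones share, had 0.53, 2.81 and 0.10 in untreated replicates 1, 2 and 3, and -1.89, -1.05 and -0.61 in GnRHa replicates 4, 5 and 7, with -2.33 ± 0.92 (SE; adjusted p = 0.719). Neither pair of groups overlapped, but each rests on few arrays, and the other CGA probe had a difference of 1.20.

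The remaining lower genes overlapped between the groups. SLC6A2, the noradrenaline transporter, had a difference of -1.38 ± 0.53 (SE; adjusted p = 0.685). The prostaglandin receptor PTGER3 had -1.10 ± 0.39, the platelet-derived growth factor PDGFB -1.03 ± 0.41, the electron carrier CYB561 -0.98 ± 0.34 and XBP1, a factor of the unfolded protein response, -0.47 ± 0.18 (all SE; adjusted p from 0.649 to 0.700). Other probes of PDGFB had -0.08 ± 0.81 and -0.29 ± 0.39, and that of CYB561 had -0.18 ± 0.27 (all SE). Those of PTGER3 and XBP1 had -0.47 ± 0.30 and -0.45 ± 0.17 (both SE). For PDGFB the authors' deposited group values had the opposite direction, with 0.05 in untreated and 0.07 in GnRHa ewes. In mice XBP1 is also needed for antibody secretion by plasma cells. GnRHa replicate 3, which had the highest gamma-1 level, also had the highest XBP1 level, 0.46. The other GnRHa ewes lay between -0.81 and -0.02 and the untreated ewes between -0.09 and 0.34. A link between XBP1 and the antibody chains was not tested.

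**Figure D4:**
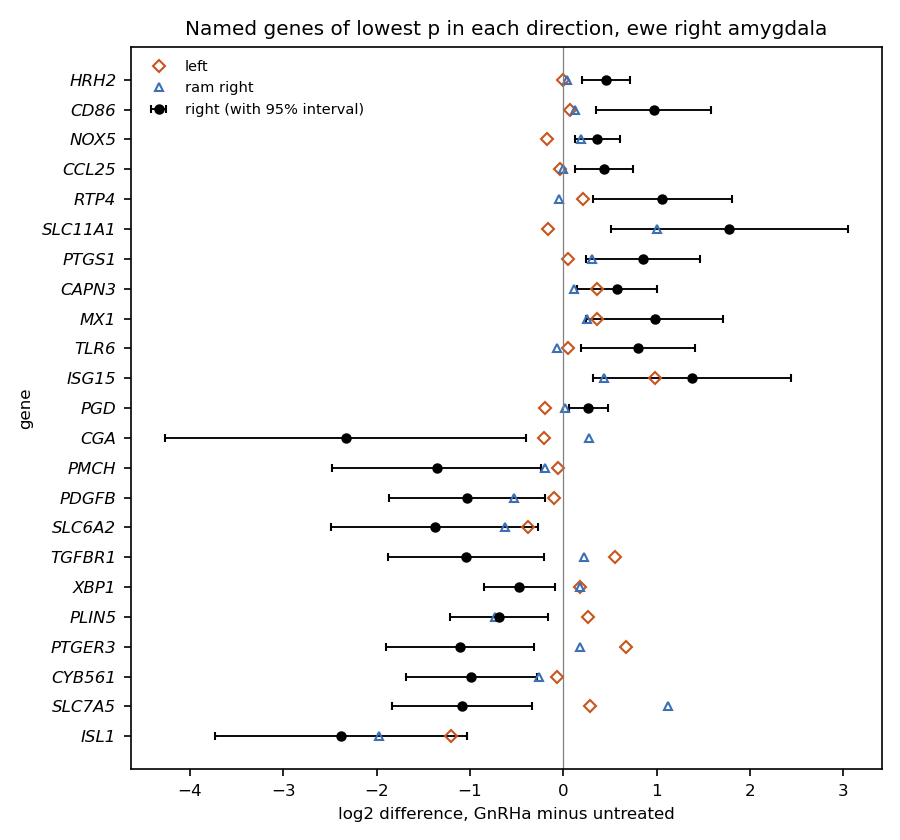
Difference in level between GnRHa and untreated ewes in the right amygdala (log2, horizontal axis) with its 95% interval for 12 genes with higher and 11 with lower means, named for low p within their direction, with the ewe left (diamonds) and ram right (triangles) differences beside each. HRH2 stands at 0.45 and PLIN5 at -0.69, and none passed the adjusted threshold.

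Genes of the reproductive axis showed no common direction. Of 20 tested genes of GnRH, the gonadotropins and the pituitary 9 had higher and 11 lower means, with a median of -0.06, and 12 steroid receptors and enzymes split into 7 and 5, with a median of 0.07. The oestrogen receptor ESR1 varied more between animals than between groups, with untreated levels of -1.69, -2.01, -2.50, 1.08 and 0.83 and GnRHa levels of -0.66, -1.71, -1.77, 2.40 and 0.44. Both groups held animals far above and far below the pool, and the difference was 0.58 ± 0.88 (SE; adjusted p = 0.922).

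The second oestrogen receptor ESR2 and the progesterone receptor PGR had differences within 1 SE of 0, with 0.53 ± 0.68 and 0.43 ± 0.81 (both SE). Aromatase, CYP19, which makes oestrogen, had 0.18 ± 0.88 (SE), with values on only 2 GnRHa arrays, and a second probe stood at -1.05. The GnRH receptor GNRHR, the target of goserelin, had -0.61 ± 0.73 (SE) and a second probe of opposite sign at 0.55, the luteinizing hormone receptor LHCGR -0.29 ± 0.77 (SE), and GNRH1 itself -0.09 ± 0.85 (SE). Intervals of this width do not show that these receptors were alike in the groups.

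Social neuropeptide genes were also uncertain on the right. The oxytocin receptor OXTR had -0.65 ± 0.64 (SE; adjusted p = 0.875) on the right and 2.08 ± 0.64 (SE; adjusted p = 0.971) on the left, a difference between sides of -2.73 ± 0.86 (SE; adjusted p = 0.427). Galanin, GAL, had 0.81 ± 0.52 (SE; adjusted p = 0.834), and its other probe -0.16. The neuropeptide Y receptor NPY2R had -0.82 ± 0.38 (SE; adjusted p = 0.750), and growth hormone-releasing hormone GHRH -1.60 ± 0.75 (SE; adjusted p = 0.763). Neuropeptides and their receptors as a list had 10 higher and 14 lower means, with a median of -0.10.

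Across the remaining lists the members were divided, and few reached an unadjusted p under 0.05. Of 26 vascular genes 14 had higher means with a median of 0.02, including the angiopoietin receptor TEK at 1.65 ± 0.71 (SE; adjusted p = 0.727) and its ligand ANGPT2 at 1.43 ± 0.65 (SE; adjusted p = 0.750). Of 21 matrix, protease and integrin genes 12 had higher means, with a median of 0.17, and the collagenase MMP13 had -1.92 ± 0.81 (SE; adjusted p = 0.726). Stress and heat shock genes had lower means in 6 of 8, HSP90AA1 among them at -0.42 ± 0.19 (SE; adjusted p = 0.726), and lipid genes in 11 of 19.

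Ribosomal and translation genes had higher means in 15 of 21, but with a median of 0.10 and 0 at an unadjusted p under 0.05. The lowest-p members of the other lists included CRY1, a clock repressor, at 0.46 ± 0.27 and the growth regulator MYC at 0.56 ± 0.33 (both SE). The ribosomal protein RPL34 had 0.20 ± 0.11 and CPT1A, a mitochondrial enzyme of fatty acid uptake, had -0.43 ± 0.30 (both SE). The channel kinase TRPM7 had -0.44 ± 0.27, the prion protein PRNP 0.13 ± 0.15 and the sterol reductase TM7SF2 -0.27 ± 0.16 (all SE). The 3 other PRNP probes had the opposite sign, at -0.02, -0.44 and -0.53, as did the other TRPM7 probe at 0.23. Over all 717 named genes tested 340 had higher and 377 lower means, with a median of -0.03.

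**Figure D5:**
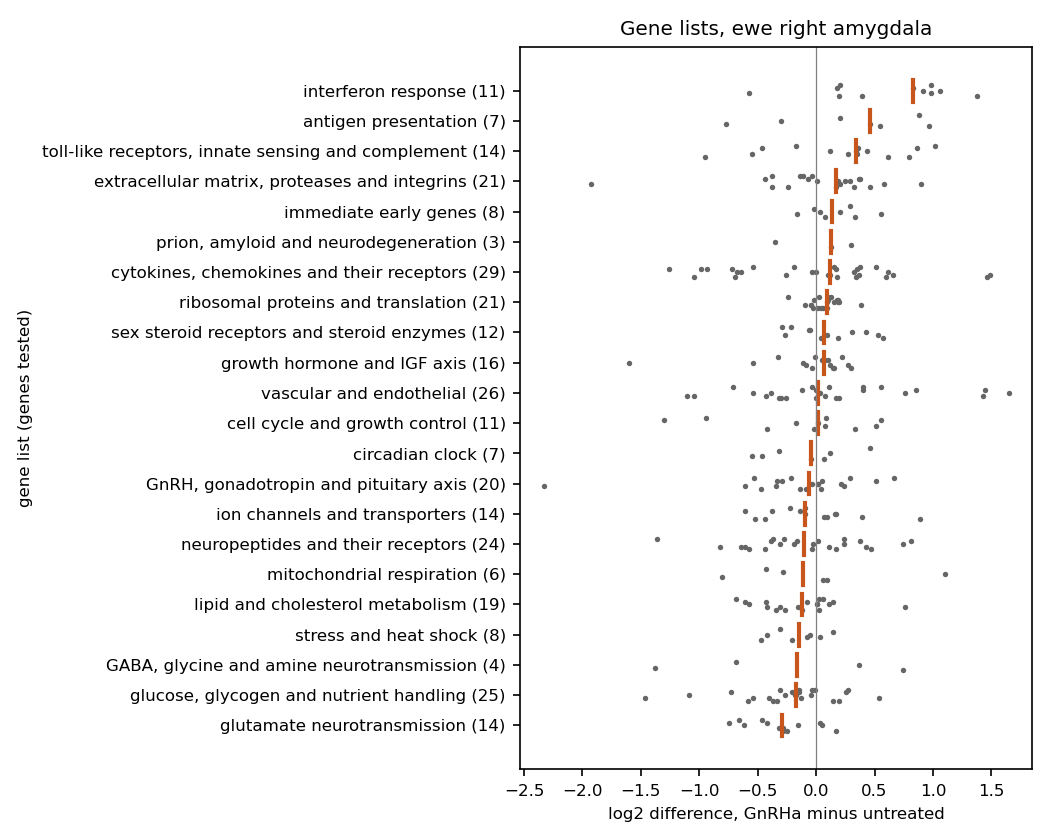
Differences in level between GnRHa and untreated ewes in the right amygdala (log2, horizontal axis) for the tested members of 22 gene lists, 1 point per gene, with a bar at the list's median. The interferon list has the highest median, 0.83, and the glutamate list the lowest, -0.30.

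Where the right side was set against the left, 1 of 12930 probes passed (0.00773%). It was EE813670, an expressed sequence without a gene name here. Its right levels were -0.96, -0.92, -1.46, -0.48 and -0.64 in untreated and -0.46, 0.36, -0.10, 0.24 and 0.15 in GnRHa ewes, a difference of 0.94 ± 0.19 (SE; adjusted p = 0.108). All GnRHa ewes lay above all untreated ewes on the right. Its left levels in replicates 3 to 7 were -0.90, -0.37, -1.06, -0.62 and -0.18 in untreated and -0.93, -1.0, -1.0, -1.29 and -1.36 in GnRHa ewes, where the groups overlapped and the difference was -0.49 ± 0.19 (SE). The right difference exceeded the left by 1.43 ± 0.26 (SE; adjusted p = 0.0448), a call that was lost with the twin pair as a block, fixed or random, and under most other alternatives, among them no animal block, no dye term and ewes only.

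No named gene passed that comparison, and those of lowest p were the chemokine receptor CCR3 with 2.28 ± 0.64, PTGER3 with -1.77 ± 0.52, NOX5 with 0.54 ± 0.16 and the prohormone convertase PCSK2 with -1.18 ± 0.35 (all SE; adjusted p from 0.398 to 0.418). Against ram right amygdala no probe passed (0%; lowest adjusted p = 0.116, 753 probes or 5.82% at an unadjusted p under 0.05). The named gene of lowest p was SLC7A5, whose difference was -1.09 in ewes and 1.12 ± 0.39 (SE) in rams, with ewes below rams by -2.21 ± 0.53 (SE; adjusted p = 0.452). In the same comparison the bone protein BGLAP had 2.46 ± 0.73, the chitinase CHIA -2.85 ± 0.89 and the bicarbonate transporter SLC4A4 -1.81 ± 0.61 (all SE; adjusted p = 0.848). BGLAP had 0.48 ± 0.47 in ewes and -1.98 ± 0.57 in rams, and CHIA had 0.13 ± 0.61 and 2.98 ± 0.65 (all SE). SLC4A4 had -0.73 ± 0.44 in ewes and 1.08 ± 0.43 in rams (both SE). CHIA had values on only 3 arrays of each ewe group. BGLAP and CHIA had values on 3 untreated ram arrays, and on 3 and 4 GnRHa ram arrays. In ram right amygdala itself 5 probes passed (0.0387%), and 0 with the twin pair as a fixed block.

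Of probes without a gene name, the pair lowest in p among those with lower means were EE874205 and FE028883. EE874205 had levels of 1.10, 1.96, 0.55, 1.13 and 0.24 in untreated and -0.16, -0.57, -0.20, -0.48 and 0.14 in GnRHa ewes. The groups did not overlap, and the difference was -1.25 ± 0.28 (SE; adjusted p = 0.123). The authors' deposited group values had the opposite direction for EE874205, with 0.14 in untreated and 0.26 in GnRHa ewes. FE028883 had -0.15, 1.49, -0.25, 1.26 and 2.04 in untreated ewes and -2.40, -1.08, -0.44 and -2.52 in GnRHa replicates 3, 4, 5 and 7, with no overlap and a difference of -2.44 ± 0.54 (SE; adjusted p = 0.137).

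Of the genes named here, 31 had other probes, 34 in all, and 26 of these had a difference of the same sign. In the authors' deposited table of each group against the pool, GnRHa minus untreated had the same sign for 49 of 60 named genes and transcripts, against 67.4% of all 12930 probes. Those values come from the same series, and many of the 60 were picked for low p here, so the comparison is not independent. Of the 60, 9 are the gamma-1 and light chain probes that followed each other closely. In the authors' deposited table the gamma-1 chain X69797 stood at -0.84 in untreated and 1.08 in GnRHa ewes.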

How the data were processed

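Amygdala RNA of sheep was hybridised against pooled amygdala RNA on 2-colour Agilent arrays, read with Agilent Feature Extraction 9.1 per the submitters' processing notes. The authors deposited, for every sample, a log2 ratio per spot of its RNA over the pool; the background correction, normalization and direction of these ratios are not given in the sources used here. The authors also deposited, for each group against the pool, log2 fold changes with a mean log2 brightness, a score and p-values, of which the fold changes and the brightness were used. The number of arrays limits the precision.

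Control spots were dropped and spots of a probe averaged, giving 15008 probes, of which 1414 had 1 gene name (807 genes) through accessions, symbols or gene numbers. The 12930 probes that every one of the 8 groups measured on 2 or more arrays were tested. Arrays were selected and turned by 10 spike-in probes with 20 spots each. limma 3.58.1 in R 4.3.3 fitted 8 group means and the dye of the sample to 41 arrays, with animal as a random block (within-animal correlation 0.147), eBayes and two-sided tests, with Benjamini-Hochberg adjustment over all tested probes of a comparison. The fit was tested on simulated data. Sequences and coordinates were not used here.

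Named genes were given with the brightest probe: 12 in each direction of lowest p on the ewe right, the lowest-p member of each list, fixed hormone and immune genes, 2 unnamed probes in each direction and 4 genes for each interaction. Not every such value is printed, and some genes that the rule takes are not reported here. Members and lists were chosen with earlier results of these data known. Twin pairs come from the labels; correlations of the deviations of right-side twins were 0.136, 0.0821 and -0.0145 in pairs 3, 4 and 7. Alternatives changed the arrays, dye, block, normalization, filters and weights, and left out each array in turn.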

Additional observations from a re-analysis of the deposited data

Results flagged for a closer look

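In 7 of 108 groups of 4 or 5 arrays tested (6.48%), 1 array lay far from the others by Dixon's criterion, where chance gives about 1 in 20. GRM5 had untreated replicate 4 at -1.05, against 0.87 to 1.28 in the other untreated ewes, and GnRHa replicate 3 at 0.89, against -0.51 to -0.13. SLC7A5 had untreated replicate 4 at -0.97, against 0.11 to 0.52. SLC6A2 had untreated replicate 3 at -0.26, against 1.01 to 1.14. Among GnRHa ewes, PYGL had replicate 3 at -1.26, against -0.37 to -0.09, CCL25 had replicate 3 at -0.34, against 0.17 to 0.27, and PMCH had replicate 6 at -1.11, against -0.43 to -0.15. The GnRHa effect on EE813670 differed between the sides by 1.43 (adjusted p = 0.0448).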

How the results depend on the processing

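For the ewe right comparison the count of probes past the threshold, 0 in the fit described, was 140 with array weights (93 higher, 47 lower, 14 of them immunoglobulin probes), 4 with quantile and 4 with scale normalization, and 1 with an intensity trend and robust prior; it was 0 with all 56 columns as labelled and with the twin pair as a fixed or random replicate block. Leaving out 1 array gave 0 to 22, with 22 without GnRHa replicate 5 (12 immunoglobulin probes). The array weights were 0.376 for untreated replicate 4 and 2.1 for GnRHa replicate 7. The side interaction, 1 probe, gave 47 with array weights, 0 with the replicate block fixed or random, and 0 with all columns, the brighter probes, the dye as labelled, ewes only, the compared groups only, the trend, no animal block, no dye term, no filter or turned columns left out, and 0 to 6 without 1 array. The ram right comparison, 5 probes, gave 0 with all columns, the compared groups only, no dye term and the fixed replicate block, 2 with probes on every array and with turned columns left out, 3 with the brighter probes, the dye as labelled, the trend and quantile normalization, and 1 to 9 without 1 array. The sex interaction, 0 probes, gave 1 with array weights and 0 to 1 without 1 array; the ewe left comparison gave 0 to 0. The causes were not tested. Of 907 values for the 23 genes named for low p within their direction and 13 immunoglobulin or unnamed probes under 26 alternatives, 874 kept their direction and stayed short of the threshold, 33 passed it, and 0 changed sign. Among the other genes named, the ewe right difference changed sign in 1 alternative for MYC and in 2 each for PRNP and ESR1. It did so in 3 for LHCGR, 4 for CYP19 and 5 for CHIA. The gamma-1 difference ran from 2.43 (all columns) to 5.04. Dim probes, with missing values, limit what can be said of the hormone receptors.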
